A study of Mus musculus with 2 samples.

Results

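Of 23452 replicated open-chromatin peaks in nuclei of mouse hepatic stellate cells, 4065 were intragenic peaks near gene ends. They made up 17.3% of the replicated peaks (95% Wilson interval 16.9 to 17.8%). A replicated peak is an entry of the peak list of replicate A that overlapped an entry of replicate B by 1 bp or more. These 4065 had their centre inside the body of a protein-coding gene, more than 1 kb and at most 20 kb from the nearest end of any protein-coding gene in mm10. They were chosen by position and by presence in both lists, without use of their strength or width. The other replicated peaks comprised 8675 within 1 kb of a gene end, 4112 deeper than 20 kb inside gene bodies, 4062 intergenic within 50 kb of a gene end and 2538 farther out.

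The assay was ATAC-seq, in which Tn5 transposase cuts and tags accessible DNA. Both samples belonged to 1 group, replicates A and B: nuclei of C57BL6/JBomTac mice that were healthy and fed chow, with the ROSA26 allele Gt(ROSA)26Sortm1(mCherry-Rpl10a-Flop)Kra and the transgene Tg(Lrat-cre)1Rshw (B6.Cg), sorted on mCherry-RPL10A. The Cre transgene is driven by Lrat, the retinol-esterifying enzyme gene of these cells, so the sort takes whichever liver cells had used that promoter. There was no other condition or control group, ages were not given in the sources used here, and no source says whether A and B are different animals, so their differences may be technical ones. In the list of B, unlike that of A, each peak is named with a word for oil, although the label says control. The lists hold 36577 entries for A and 28794 for B, with no read counts. Depth is therefore unknown, and every interval given covers counting error only. Peaks are not replicates of a condition, so no p-value is given.

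Hepatic stellate cells wrap the liver sinusoids as pericytes and hold most of the body's vitamin A, and they turn into matrix-producing myofibroblasts after injury. Open chromatin inside a gene body can be an alternative promoter, from which a shorter transcript starts, or an enhancer bound by transcription factors. Promoters tend to be open in many cell types, and enhancers more often in one or a few. The peak lists record where DNA was open and not which of these a region is.

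The clearest feature shared by part of these peaks was an annotated transcription start inside the gene, and the stretches below show what lies under such peaks. Each runs 5′ to 3′ on the gene's strand, covers the part of a replicated peak within 250 bases upstream of an internal start, and is taken from RefSeq for GRCm38.p6, the assembly of mm10. They are shown for the 3 strongest peaks at a start (Rnf181, Homez and 1110004F10Rik) and for a peak at a start in each of Nr4a1, Egr2, Prelp, Mef2a, Gpr146 and Psma3, genes described further on. Capitals mark matches, on either strand, to 4 motifs: AP-1 (TGANTCA), ETS (CCGGAA), SP/KLF (GGGCGG) and NF1 (TTGGCA, a part of the nuclear factor I site).
Rnf181, chr6:72362433-72362682, minus strand: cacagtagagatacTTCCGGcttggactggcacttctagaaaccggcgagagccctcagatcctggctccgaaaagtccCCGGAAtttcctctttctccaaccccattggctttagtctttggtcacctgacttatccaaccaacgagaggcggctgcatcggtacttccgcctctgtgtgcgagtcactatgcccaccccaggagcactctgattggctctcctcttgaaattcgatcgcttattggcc
Homez, chr14:54864159-54864341, minus strand: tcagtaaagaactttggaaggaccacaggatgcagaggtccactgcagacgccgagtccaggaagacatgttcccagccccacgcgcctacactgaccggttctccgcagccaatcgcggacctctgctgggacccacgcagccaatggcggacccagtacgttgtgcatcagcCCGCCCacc
1110004F10Rik, chr7:116093130-116093379, plus strand: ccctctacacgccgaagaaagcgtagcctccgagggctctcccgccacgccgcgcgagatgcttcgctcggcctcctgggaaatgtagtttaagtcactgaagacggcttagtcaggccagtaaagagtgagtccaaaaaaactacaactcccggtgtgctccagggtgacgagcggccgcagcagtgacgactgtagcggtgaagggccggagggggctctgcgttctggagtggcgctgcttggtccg
Nr4a1, chr15:101266596-101266836, plus strand: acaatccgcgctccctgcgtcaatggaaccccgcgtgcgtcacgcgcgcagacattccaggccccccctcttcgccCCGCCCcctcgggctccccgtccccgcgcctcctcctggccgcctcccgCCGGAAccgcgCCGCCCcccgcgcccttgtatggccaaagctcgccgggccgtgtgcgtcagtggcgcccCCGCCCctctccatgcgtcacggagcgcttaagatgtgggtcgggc
Egr2, chr10:67537324-67537565, plus strand: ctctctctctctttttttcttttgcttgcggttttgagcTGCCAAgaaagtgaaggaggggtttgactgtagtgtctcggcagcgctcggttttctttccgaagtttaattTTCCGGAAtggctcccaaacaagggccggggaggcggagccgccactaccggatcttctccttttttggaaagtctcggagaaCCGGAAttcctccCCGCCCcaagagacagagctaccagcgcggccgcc
Prelp, chr1:133921402-133921651, minus strand: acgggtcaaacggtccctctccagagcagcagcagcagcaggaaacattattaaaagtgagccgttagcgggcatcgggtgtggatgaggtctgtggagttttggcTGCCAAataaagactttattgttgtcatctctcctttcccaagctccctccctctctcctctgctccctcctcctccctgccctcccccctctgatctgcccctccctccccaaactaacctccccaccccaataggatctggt
Mef2a, chr7:67372859-67372913, minus strand: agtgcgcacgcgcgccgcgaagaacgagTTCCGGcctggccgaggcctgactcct
Gpr146, chr5:139389717-139389903, plus strand: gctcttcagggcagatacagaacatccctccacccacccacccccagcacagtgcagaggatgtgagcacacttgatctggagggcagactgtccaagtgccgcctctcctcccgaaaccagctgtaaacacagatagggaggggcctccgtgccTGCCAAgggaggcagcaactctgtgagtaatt
Psma3, chr12:70974427-70974622, plus strand: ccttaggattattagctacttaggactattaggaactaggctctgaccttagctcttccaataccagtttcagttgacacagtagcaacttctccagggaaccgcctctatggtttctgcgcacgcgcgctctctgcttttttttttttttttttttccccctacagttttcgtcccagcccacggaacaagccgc
The stretches of Rnf181 and Mef2a hold ETS letters, that of Homez an SP/KLF match, those of Gpr146 and Prelp an NF1 match, and those of Nr4a1 and Egr2 several kinds. The stretches of 1110004F10Rik and Psma3 hold none of the 4. Egr2 and Gpr146 each had another peak at starts, not printed here. The stretches under that of Egr2 hold none of the 4, and the stretch under that of Gpr146 holds SP/KLF matches only. A match is a description of the letters and not a site of binding.

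The intragenic peaks near gene ends were narrow and of middling strength. Their median width was 258 bp, with quartiles of 213 and 325 bp and a range from 107 to 1177 bp. Their fold enrichment, the authors' linear ratio of signal over the local background of a peak, had a median of 11.1 in A (range 3.70 to 34.8) and 9.64 in B (range 4.13 to 25.3). Replicated peaks at gene ends had medians of 14.4 and 13.0. The probability that an intragenic peak near a gene end exceeded a gene-end peak was 0.328 in A (95% DeLong interval 0.318 to 0.338) and 0.299 in B (0.289 to 0.308), so the order was the same in both lists. Against peaks deeper than 20 kb the probability was 0.538 in A (0.525 to 0.550) and 0.537 in B (0.524 to 0.549). Against intergenic peaks within 50 kb it was 0.50 in A (0.487 to 0.513) and 0.526 in B (0.514 to 0.539), above equality in B and not distinguishable from it in A. Of the 4065, 167 (4.11%) lay in the top 10% of both lists by fold enrichment, against 1625 gene-end peaks (18.7%).

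The 2 replicates gave similar values for most of these regions. Fold enrichment in A and B differed by no more than 2-fold in 3967 of them (97.6%), and Spearman's rank correlation across the 4065 regions was 0.625, a description over regions that share both libraries. In 81 the value was over 2-fold higher in A and in 17 over 2-fold higher in B. The highest values in A were among the discordant ones. The peak in Sspn, which encodes the dystrophin-complex protein sarcospan, had 34.8 in A and 15.6 in B. The peak in Il31ra, an interleukin receptor subunit, had 34.2 and 17.0. The peak in Dnah7b, an axonemal dynein gene, had 31.1 and 8.0, and that in Rsph3b, a radial spoke gene, 28.6 and 12.7. These 4 were chosen after their values were seen.

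**Figure D1:**
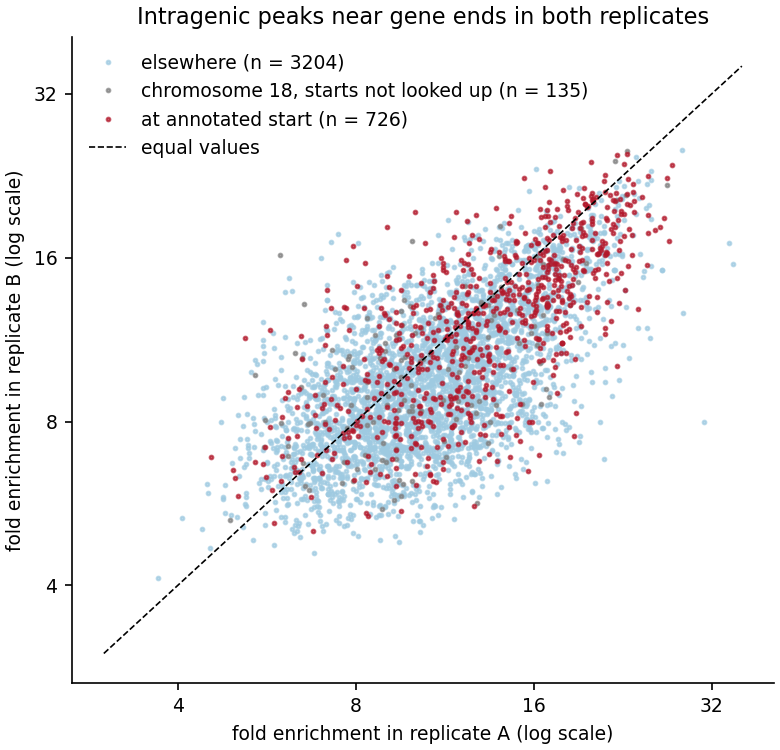
Fold enrichment in replicate A (x axis, log scale) against replicate B (y axis, log scale), 1 point for each of the 4065 intragenic peaks near gene ends; red points lie at an annotated start (n = 726), blue points elsewhere (n = 3204), grey points on chromosome 18, where starts were not looked up (n = 135), and the dashed line marks equal values. The cloud follows the line with wide scatter (rank correlation 0.625), and the few points far below the line at its right edge are the regions with 28.6 or more in A and far less in B.

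Entries of A at these positions were found again in B less often than entries at gene ends. Of 6955 entries of A at the position, 4065 were overlapped by B (58.4%, interval 57.3 to 59.6%), against 83.9% at gene ends (83.1 to 84.6%) and 56.3% deep in gene bodies (55.2 to 57.5%). The difference from gene ends was -25.4 points (95% Newcombe interval -26.8 to -24.05). From the side of B, 79.2% of 5147 entries were overlapped by A, against 90.5% at gene ends, a difference of -11.4 points (-12.6 to -10.1). Strength went with replication: by deciles of −log10 q over the whole list of A, 26.1% of the entries in the weakest were overlapped, 53.6% in the fifth and 99.3% in the strongest. Within the deciles of A the share was below that of gene ends in 10 of 10 and above that of deep intragenic entries in 2 of 10. Within the deciles of B it was above that of gene ends in 3 of 10.

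The peaks lay at 10.0 per Mb of the 405 Mb of gene body that meets the distance rule (95% Poisson interval 9.72 to 10.3). The density was 110 per Mb within 1 kb of gene ends, 7.05 deeper in gene bodies and 6.58 in intergenic sequence within 50 kb. Position was used to choose the peaks, so these densities are a description. Density fell with distance, from 17.6 per Mb between 1 and 2 kb to 10.2 between 2 and 5 kb, 9.05 between 5 and 10 kb and 8.78 between 10 and 20 kb. Median fold enrichment hardly moved over the same steps, with 11.5, 11.0, 11.3 and 11.0 in A. The distance limits did not mark a step in strength. The 89 peaks from 0.9 to 1 kb had medians of 11.9 in A and 10.6 in B, and the 77 from 1 to 1.1 kb had 11.4 and 10.4. The 92 peaks from 19 to 20 kb had 10.6 and 9.18, and the 108 from 20 to 21 kb had 10.6 and 9.28. The nearest other replicated peak was a median of 10.1 kb away, and 27.7% of these peaks had one within 5 kb. That share was 22.1% for gene-end peaks, 18.2% for deep intragenic peaks and 23.95% for intergenic peaks within 50 kb, whose median distance was 11.0 kb. The rule sets how far each class lies from gene ends, where the density was 110 per Mb, so the spacing is a description too.

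Peaks were denser nearest the 5′ boundaries of genes than nearest the 3′ boundaries. Peaks inside and outside the gene whose end was nearest were counted together, and the density was not split between them. Strand was known for the gene of the nearest end in 3222 of the 4065, and 2003 of those (62.2%, interval 60.5 to 63.8%) were nearest a 5′ boundary, the outermost annotated start of the gene. Per Mb the density was 12.5 near 5′ boundaries and 7.56 near 3′ boundaries, a ratio of 1.65 (95% interval 1.54 to 1.77). The ratio was 3.70 between 1 and 2 kb (3.0 to 4.56) and 1.31 between 10 and 20 kb (1.16 to 1.48). Fold enrichment did not follow this split in A, where the medians were 11.1 on both sides and the probability of a 5′ peak exceeding a 3′ peak was 0.492 (0.472 to 0.512). In B it was 0.530 (0.510 to 0.550).

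Much of that 5′ excess lay at annotated starts. At regions that overlap a 300 bp window around an annotated start, the 5′ to 3′ ratio was 6.37 (5.14 to 7.90), and at the other regions it was 1.25 (1.15 to 1.35). A 5′ boundary is itself an annotated start, and the density of annotated starts near each kind of boundary is not given here. The ratio of 6.37 is therefore a description. Between 1 and 2 kb the other regions still gave 1.98 (1.56 to 2.51). The plot of density by distance shows the steep decline of start-bearing peaks away from 5′ boundaries and, beyond 2 kb, the nearly flat level of the rest. Nearer than 2 kb to a 5′ boundary the rest stood at 13.3 per Mb (11.5 to 15.3), against 8.03 between 2 and 5 kb.

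**Figure D2:**
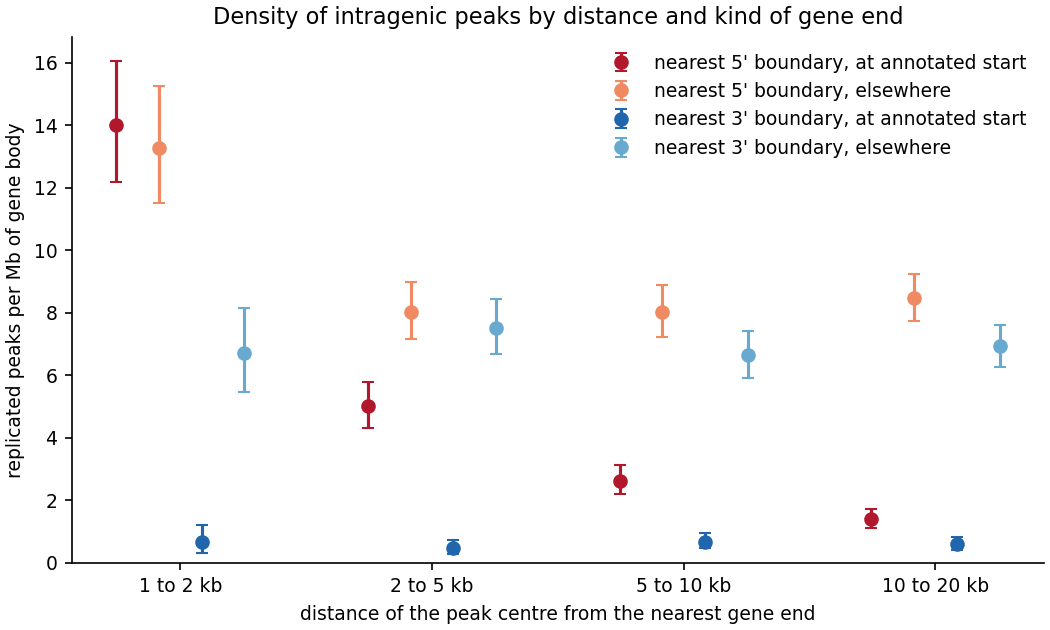
Replicated intragenic peaks per Mb of gene body (y axis) in 4 steps of distance from the nearest gene end (x axis), split by 5′ or 3′ boundary and by overlap with an annotated start; points are counts per Mb and bars 95% Poisson intervals. Start-bearing peaks near 5′ boundaries fall from 14.0 to 1.39 per Mb, while peaks elsewhere lie between 6.64 and 8.46 per Mb on both sides beyond 2 kb.

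Of the 3930 peaks off chromosome 18, 726 (18.5%, interval 17.3 to 19.7%) overlapped a RefSeq start window, which spans 250 bases before to 50 after an annotated start. The share was 71.3% for gene-end peaks, 5.06% for deep intragenic peaks and 4.54% for intergenic peaks within 50 kb. It was 5.09% for the entries of A at the same positions that B did not overlap. In 680 of the 726 the start belonged to the host gene. The share fell from 34.7% between 1 and 2 kb to 9.66% between 10 and 20 kb. The start table holds no entry for chromosome 18 and has strand for 79.9% of protein-coding genes, so further starts may lie under these peaks.

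Peaks at internal starts were stronger than the other intragenic peaks near gene ends. Their median fold enrichment was 13.4 in A and 12.4 in B, against 10.7 and 9.27 for the 3204 peaks elsewhere. The probability of exceeding was 0.670 in A (0.647 to 0.692) and 0.696 in B (0.674 to 0.718). Against gene-end peaks it was 0.459 (0.438 to 0.480) and 0.451 (0.430 to 0.472), slightly below equality in both lists. The peaks elsewhere did not differ detectably from deep intragenic peaks, with probabilities of 0.507 in A (0.494 to 0.521) and 0.499 in B (0.486 to 0.513). The peaks elsewhere include those in genes without an entry in the start table, so some of them may lie at starts not known here.

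**Figure D3:**
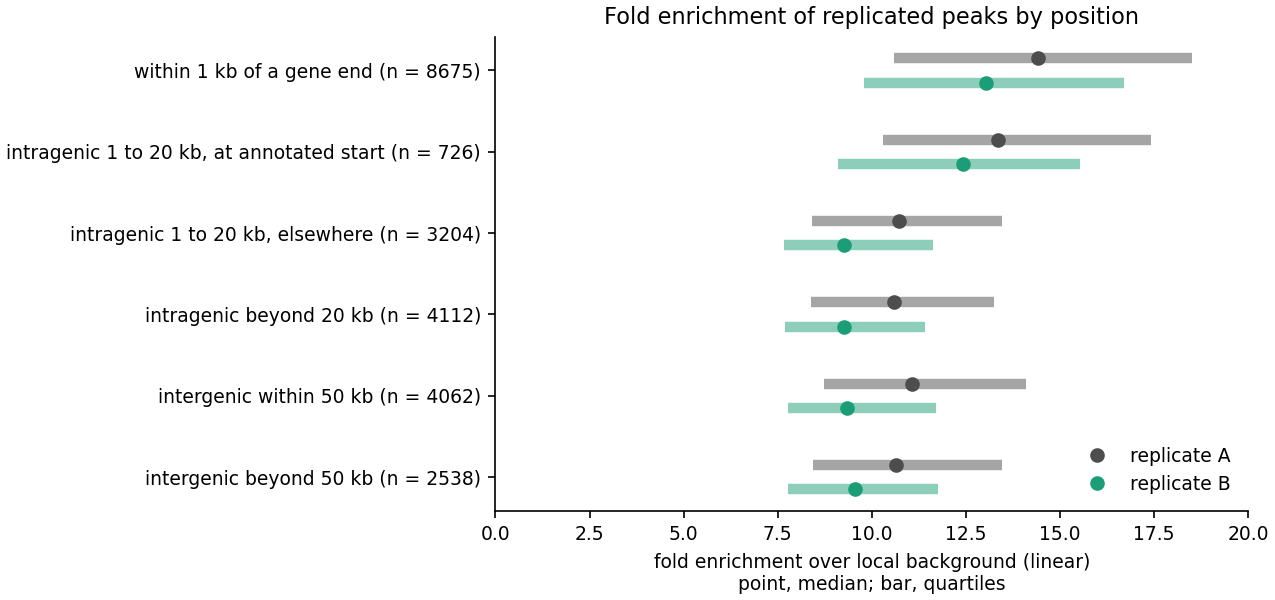
Fold enrichment over local background (x axis, linear) of replicated peaks by position (y axis); points are medians and bars span the quartiles, grey for replicate A and green for replicate B. Intragenic peaks at an annotated start, with medians of 13.4 and 12.4, sit next to gene-end peaks, and those elsewhere, with 10.7 and 9.27, next to deep intragenic peaks.

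Genes with an open internal start often lacked a replicated peak at their outermost start. Of 661 genes of known strand with such a peak at a start of their own, 152 (23.0%, interval 19.9 to 26.4%) also had a replicated peak within 1 kb of their 5′ boundary. The share was 45.2% of the 15298 genes of known strand with room for a peak by the rule, and 25.3% of the 2353 genes that have an internal annotated start, open or not. Among the 1695 genes with an internal start but no peak of this kind on it, it was 26.1%. Having an internal annotated start thus went with a low share in either case. Among 1731 genes whose intragenic peaks near gene ends all lay off their own starts, 55.1% had an open 5′ boundary. Of the 4460 annotated starts at these positions, 897 (20.1%) lay under a replicated peak, against 40.1% of starts at gene ends and 10.0% of those deep in gene bodies.

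Density by the state of the nearest 5′ boundary differed between the 2 kinds of peak. A boundary was open if it had a replicated peak within 1 kb. Peaks at starts lay at 1.64 per Mb nearest open 5′ boundaries and at 5.67 nearest closed ones, a ratio of 0.290 (0.238 to 0.353). These densities are per Mb and not per annotated start. Genes with an internal annotated start, open or not, less often had an open 5′ boundary (25.3%, against 45.2% of all with room). How far that accounts for the ratio was not tested. Peaks elsewhere lay at 9.32 per Mb nearest open and 8.13 nearest closed 5′ boundaries, a ratio of 1.15 (1.03 to 1.27). That ratio varied with distance and not steadily. It was 0.892 between 1 and 2 kb (0.673 to 1.18), not distinguishable from equality, and 0.520 between 2 and 5 kb (0.408 to 0.663). It was 1.44 between 5 and 10 kb (1.18 to 1.77) and 1.70 between 10 and 20 kb (1.42 to 2.02).

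The sequence around the open internal starts resembled that of open gene-end starts in base composition. Windows of 300 bp were searched on both strands, 870 under an intragenic peak near a gene end, 7595 under a gene-end peak, and 3305 at internal starts of the same positions with no entry of A or B. The GC content was 62.5, 62.8 and 52.1%, and the ratio of observed to expected CpG 0.773, 0.821 and 0.273. SP/KLF letters were in 66.6% (63.3 to 69.6%) of the windows under intragenic peaks, 73.6% under gene-end peaks and 22.9% at the unopened internal starts, against 35.7% of all 32851 windows. ETS letters were in 27.9% (25.1 to 31.0%), 35.1% and 7.66%, against 14.9% of all. AP-1 letters went the other way, with 5.17% (3.89 to 6.85%), 3.70% and 9.05%, against 7.81% of all. This was not particular to AP-1. NF1 letters were in 12.1, 10.1 and 15.6%, GATA letters (AGATAA) in 5.40, 4.66 and 12.2%, and RUNX letters (TGTGGT) in 9.43, 11.0 and 20.7%. Of the other motifs searched, some went each way. GC-rich letters are more frequent in GC-rich windows whatever binds there, and the part of base composition in these shares was not tested. Peaks away from starts were not searched, because genome sequence was not used.

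Of the 10 regions ranked highest by fold enrichment, averaging ranks over A and B, 3 lay at an annotated start, and 1, in Ammecr1l, was on chromosome 18, where starts were not looked up. Pex2 and Lonrf1, which hold peaks named below, had no entry in the start table, so their own starts could not be looked up either. The first was in Ak5, which encodes an adenylate kinase, at chr3:152478930-152479291, with 28.5 in A and 25.3 in B and no start beneath it. The peak at chr7:116093078-116093408 covered starts of 1110004F10Rik and 1700003G18Rik, and its values were 27.5 and 23.7. The peak in Rnf181, a ubiquitin ligase gene, had 26.9 and 22.4 at a start of the gene 2756 bp from the nearest end, that of Tmem150a. The peak at a start of Homez, a homeobox gene, had 25 and 22.6. The others were in Mrps27, of the mitochondrial ribosome (25.3 and 23.1), Ammecr1l (26.9 and 21.8), Asah1, which encodes acid ceramidase (25.2 and 22.3), Pex2, a peroxisome assembly gene (23.8 and 24.6), Lonrf1 (24.9 and 21.9) and Eps8l1 (24 and 22.1). None of these 10 is a gene of the stellate cell list described further on. The 2 replicates placed all 10 within the top 1.49% of their entries.

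The widest regions were not the strongest. A peak of 1177 bp in Crlf2, a subunit of the receptor for thymic stromal lymphopoietin, measured 8.91 by fold enrichment in A and 10.6 in B. The 931 bp peak in Btd, which encodes biotinidase, had 6.86 and 7.60, and a peak of 916 bp in Zbtb46, a zinc finger gene, had 11.6 and 8.83. Only 162 of the 4065 (3.99%) were 500 bp or wider. At the inner limit of distance stood peaks in Ccdc114 at 1001 bp, which lay on a start of that gene (10.8 and 11.3), and in Ltbp3 and Nt5dc2 at 1002 bp (14.0 and 10.8, 12.9 and 9.15). At the outer limit stood peaks in Vps13d at 20000 bp (16.4 and 10.6), Gbp8 at 19994 bp (10.2 and 8.0) and Mapk4 at 19978 bp (7.09 and 8.0).

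One region covered a microRNA hairpin together with its seed-bearing arm. The peak at chr13:113035960-113036197 in Cdc20b, with 13.0 in A and 8.46 in B, spans Mir449c. The mature 5′ arm is printed from RefSeq because this family's seed, in capitals, is the part that pairs with targets.
mmu-miR-449c-5p: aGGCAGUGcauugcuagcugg
The peak shows open DNA at the hairpin, and the assay does not measure the microRNA itself.

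The 4065 peaks fell in the bodies of 3045 of 21887 protein-coding genes (13.9%). Of the 19256 genes with any sequence that meets the rule, 15.8% held at least 1. The share rose with gene length, from 2.12% of genes up to 5 kb to 26.3% of genes over 100 kb, while the density per Mb fell from 15.9 to 8.90. There were 2235 genes with 1 peak, 551 with 2, 196 with 3, 49 with 4, 8 with 5, 4 with 6 and 2 with 7. In 3738 of the peaks (92.0%) the nearest end was that of the host gene, and in 327 that of a gene nested in or overlapping it.

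The 2 genes with the most held 7 each, and in both the count came partly from genes lying within them. Syn3, a synapsin gene, hosts Timp3, an inhibitor of matrix metalloproteinases, and 3 of its 7 peaks lay in Timp3. The strongest of those 3, at chr10:86339699-86339953, had 15.3 in A and 10.1 in B. Arhgap26, which encodes a GTPase-activating protein, overlaps Fgf1, and its strongest peak had 22.04 and 20.4. Vps13d, a lipid transfer gene, had 6, all of them nearest an end of Dhrs3, which encodes a retinal reductase of vitamin A metabolism. In 4 of the 6 the peak lay outside Dhrs3, and these 4 had 15.98, 16.02, 16.2 and 16.4 in A and 9.91, 16.1, 15.2 and 10.6 in B. Med12l, related to a Mediator subunit, had 6, of which 3 lay in P2ry14, the receptor for UDP-glucose. In 3110082I17Rik, 3 of 5 lay in Gpr146, an orphan receptor gene, and 2 of those on Gpr146 starts, with 10.0 and 8.77 for the one and 17.4 and 15.6 for the other.

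Other genes held their peaks without such a neighbour. Tanc1, a scaffold protein gene, had 6, from 8.45 to 15.7 in A and from 5.69 to 15.2 in B. Zbtb38, which encodes a zinc finger protein that binds methylated DNA, had 5, from 7.61 to 19.7 in A and from 7.49 to 16.6 in B, and 2 lay at its own starts. Tnfrsf1b, a receptor for tumour necrosis factor, had 5, from 6.93 to 13.4 and from 5.02 to 13.3. Synpo, which encodes the actin-associated synaptopodin, had 5, from 6.64 to 13.0 and from 5.99 to 14.2. The map of 6 genes shows such peaks spread along the gene bodies and, for most of them, values of A and B close to each other.

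**Figure D4:**
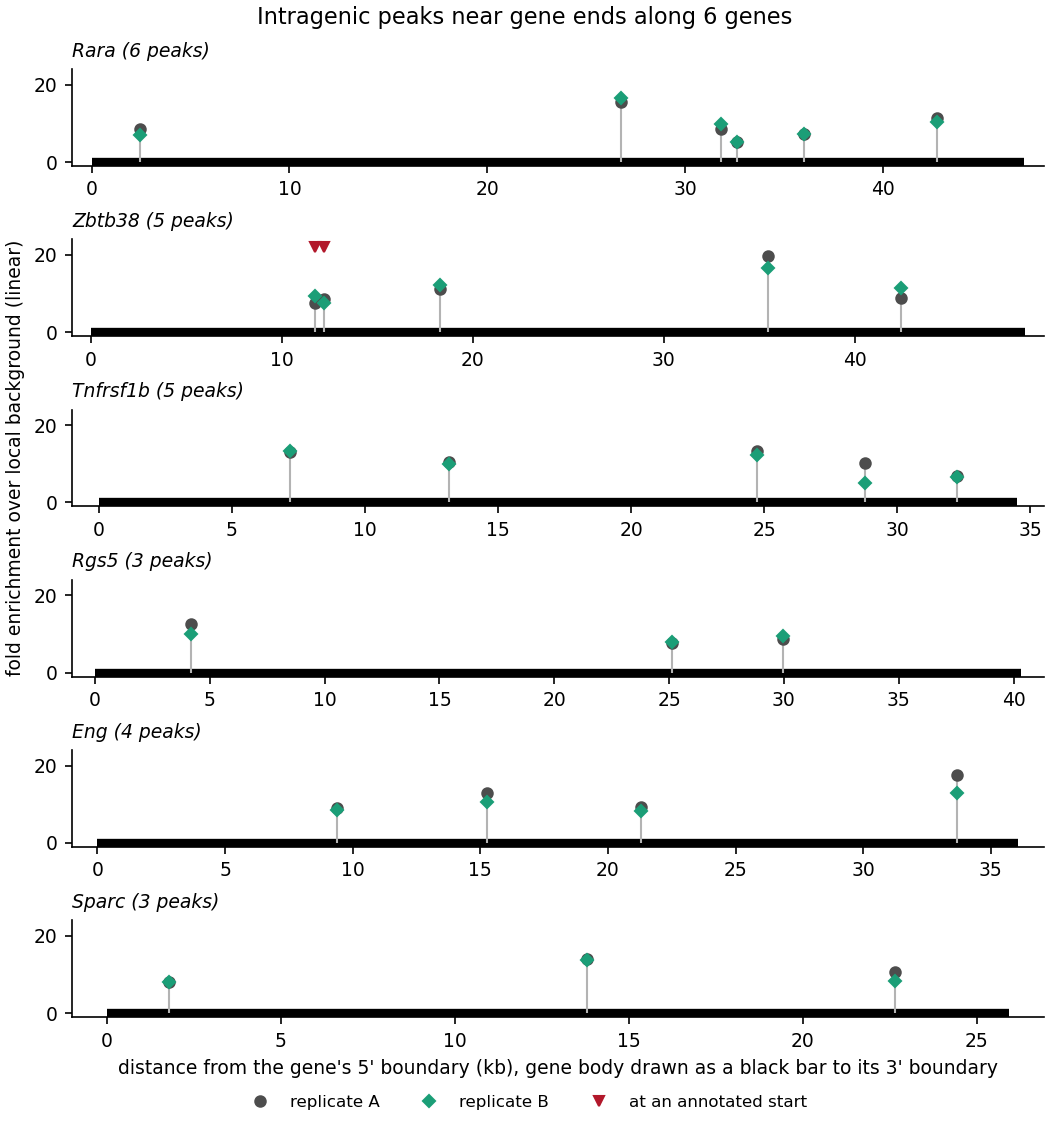
Fold enrichment (y axis, linear) of each intragenic peak near a gene end along 6 genes, by distance from the 5′ boundary in kb (x axis); black bars are gene bodies, grey circles replicate A, green diamonds replicate B and red triangles peaks at an annotated start of the gene. The 2 peaks of Zbtb38 at starts lie near 12 kb, and the peak of Tnfrsf1b with 10.3 in A and 5.02 in B shows the widest gap between replicates.

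Stellate cell genes held these peaks more often than protein-coding genes at large. In the list of 30 stellate cell identity genes, 16 (53.3%) held at least 1, with 26 peaks in all and a median of 1 per gene, against 13.9% of all protein-coding genes. All 30 had room for one by the rule, and over all genes with room the share was 15.8% and the median 0. Rgs5, a regulator of G protein signalling in pericytes, held 3, with 12.5, 7.59 and 8.59 in A and 10.0, 8.04 and 9.62 in B. Prelp, a leucine-rich proteoglycan gene, held 3, with 7.73, 7.0 and 8.32 in A and 6.68, 6.50 and 6.20 in B. Bco1, which cleaves beta-carotene, held 2 (9.46 and 11.1 in A, 11.4 and 9.64 in B), and Cygb, the cytoglobin gene, 2 (9.99 and 6.07, 9.89 and 6.37). Pdgfrb, Vipr1 and Adamtsl2 held 2 each. Ntm held none by this rule, although 11 replicated peaks lay in its body. Lrat, whose promoter drives the transgene, held none either, and both genes had a replicated peak within 1 kb of an end. The markers Reln, Hgf, Dcn, Ecm1, Hand2 and Nes also held none, Reln with 11 replicated peaks elsewhere in its body. Only 1 of the 16 genes, Prelp, held a peak at a known start of its own. At least Pdgfrb, on chromosome 18, and Cygb had no entry in the start table, so their starts could not be looked up.

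The stellate peaks were of modest strength, and the count rested on that part of the lists. Their median fold enrichment was 8.78 in A and 9.26 in B, below the 11.1 and 9.64 of all 4065. With only the 10000 strongest entries of each list, 0 of 30 genes held one, against 3.87% of all genes. With entries at or above the median −log10 q of their list, 9 of 30 did (30%), against 7.42%. All 16 lists were chosen with results of these data known, 11 of the 30 stellate genes are also in another list, and long genes hold more peaks (median length 24.3 kb here, 21.4 kb over all genes with room). Of all genes of 20 to 40 kb with room, 19.4% held one.

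Lists of signalling and contractile genes stood at similar levels. In TGF-beta and BMP signalling 21 of 39 genes (53.8%) held at least 1. Eng, the co-receptor endoglin, held 4, with 9.05, 12.8, 9.29 and 17.6 in A and 8.56, 10.5, 8.28 and 13.0 in B. Smad7 and Smad6, inhibitors of the pathway, held 3 and 2, and Tgfbr3, the co-receptor betaglycan, 2. Bmpr1b and Bmp6 held none. With the 10000 strongest entries 1 of the 39 did (2.56%), below the 3.87% of all genes, and at or above the median −log10 q 10 did (25.6%, against 7.42%). In the vasoactive and pericyte list 16 of 32 (50%) held at least 1, led by Adra1b, an adrenergic receptor (12.8, 11.8 and 17.9 in A, 9.45, 13.9 and 16.4 in B), Adcyap1r1, the PACAP receptor, Rgs5 and Ramp1, a partner of the CGRP receptor, with 3 each. The calcium channel gene Cacna1c and the phosphodiesterase gene Pde1a held none, and with the 10000 strongest entries 1 of the 32 genes did (3.13%), again below all genes. Median gene length was 61.7 kb in the TGF-beta list and 48.2 kb in the vasoactive list, and of all genes of 40 to 100 kb with room 25.9% held a peak.

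Matrix and cytoskeleton genes came next. In the extracellular matrix list 16 of 36 (44.4%) held at least 1: Loxl1, a crosslinking enzyme of elastin, held 4, and Timp3, Col6a3 and Sparc 3 each. The peaks of Sparc, which encodes a collagen-binding matrix protein, had 10.6, 14.1 and 8.16 in A and 8.42, 13.7 and 8.03 in B. Lama2 and Fbn1 held none. In actin cytoskeleton and adhesion 15 of 38 (39.5%) did, led by Itga1, a collagen-binding integrin subunit, with 4, Actn4 and Itgb5 with 3 and the myosin gene Myh9 with 2. The 3 in Actn4, an actin crosslinker, had 14.5, 17.3 and 10.2 in A and 17.8, 17.7 and 10.4 in B. Arhgap24 and Lpp held none. With the 10000 strongest entries 4 of 36 (11.1%) and 6 of 38 (15.8%) did. The median lengths of 47.1 and 83.1 kb again set these lists among genes of which 25.9% held a peak.

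Among regulators, 13 of 35 nuclear receptor and retinoid genes (37.1%) held at least 1. Rara, the retinoic acid receptor alpha, held 6, with 8.45, 15.4, 8.44, 5.16, 7.29 and 11.4 in A and 7.12, 16.5, 9.87, 5.11, 7.23 and 10.4 in B, so the order of strength was nearly the same in both. Rarg and Nr1h4, the bile acid receptor FXR, held 3 each, and Nr4a1, an immediate early orphan receptor, 2 (20.2 and 14.0 in A, 11.1 and 11.8 in B). Rora and Rarb held none by this rule, and Rarb had 10 replicated peaks elsewhere in its body. Of 40 other transcription factors of mesenchyme 15 (37.5%) held at least 1. Gata4 held 4, with 4.94, 12.6, 9.46 and 9.17 in A and 6.71, 11.4, 7.43 and 9.19 in B. Nfic and Ets1 held 4 and Mef2a 3, and 2 of those counted in Ets1 are neighbouring entries of A under 1 entry of B. Nfia and Foxp1 held none, although 15 replicated peaks lay in the body of Nfia. Median lengths were 35.1 kb for the receptor list and 66.9 kb for the mesenchyme list, lengths at which 19.4 and 25.9% of all genes held one.

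AP-1 and immediate early genes are short, with a median of 4.66 kb, and 10 of 32 (31.3%) held a peak. Batf, an AP-1 family member, held 2, with 19.1 and 14.9 in A and 21.5 and 8.96 in B. Egr2 held 2 at its own starts (10.7 and 12.2 in A, 6.41 and 10.5 in B). Fosb had 1 with 16.01 and 16.7, and Maff 1 with 17.2 and 12.4. Atf3 and Batf3 held none. With the 10000 strongest entries 3 of 32 held one (9.38%, against 3.87%), and with an inner limit of 2.5 kb in place of 1 kb, 4 of 32 (12.5%), near the 11.0% of all genes under that limit.

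Markers of other liver cells varied by type. No Kupffer or myeloid gene held a peak (0 of 27, Adgre1 and Ptprc among them), although each replicate taken alone gave 2 (7.41%). Of 30 hepatocyte genes 1 did, Cyp2e1, a cytochrome P450 of the pericentral liver (8.30 and 7.56), while Cps1 and Hnf4a did not. Of 20 cholangiocyte genes 1 did, Bicc1 (10.7 and 7.87), while Pkhd1 and Sorbs2 did not. Without replicate B these became 4 of 30 hepatocyte (13.3%) and 3 of 20 cholangiocyte genes (15%), against 20.7% of all genes. Among 30 endothelial genes 7 (23.3%) did. Eng, which the TGF-beta list also holds, had 4, and Clec4g, a lectin of sinusoidal endothelium, had 1 with 15.5 and 15.6. Wnt9b and Wnt2 had 1 each, with 11.4 and 8.27 and with 11.3 and 7.78, and Erg and Stab2 none. At or above the median −log10 q 2 of the 30 endothelial genes did (6.67%, against 7.42% of all genes), and without replicate B 11 did (36.7%, against 20.7%). Of 25 lymphocyte genes 5 (20%) did, among them Tcf7 with 3, and Lck, Cd2 and Bach2 with 1 each. The peaks of Tcf7 had 11.8, 7.80 and 14.9 in A and 10.4, 9.92 and 7.71 in B, and Ebf1 and Pax5 had none. Whether these come from other cells in the sort was not tested.

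Of 26 genes of smooth muscle, portal fibroblasts and mesothelium, cells related to stellate cells, 8 (30.8%) held a peak, and 8 of the 26 genes are in another list. The median length of the 26 genes was 22.1 kb, and of all genes of 20 to 40 kb with room 19.4% held one. Ramp1 held 3, Eln, the elastin gene, 2 and Gli1 and Fbln2 1 each, while Slit2 and Gpm6a held none. The 2 counted in Eln are neighbouring entries of A under 1 entry of B. Genes of other organs, the list least related to liver, had 2 of 36 (5.56%), Cdx1 (14.7 and 10.0) and Tg (9.78 and 7.87), and Ttn and Mitf had none. Without replicate B, all entries of A counted, 7 of 36 did (19.4%), near the 20.7% of all genes by that count. Housekeeping genes had 3 of 30 (10.0%): Ywhaz with 2, and Psma3, a proteasome subunit gene, and Reep5 with 1. The Psma3 peak, at a start of the gene, had 15.6 and 13.9. Rab7 and Hprt had none. With the 10000 strongest entries none of the 26 smooth muscle and related genes and none of the 25 lymphocyte genes held one. The bar chart of all 16 lists sets these shares beside the 13.9% of all protein-coding genes, which takes no account of length: the hepatocyte, Kupffer, other-organ and housekeeping lists have median lengths of 11.0, 11.1, 9.49 and 7.08 kb, and of all genes of 5 to 10 and 10 to 20 kb with room 5.57 and 12.3% held a peak.

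**Figure D5:**
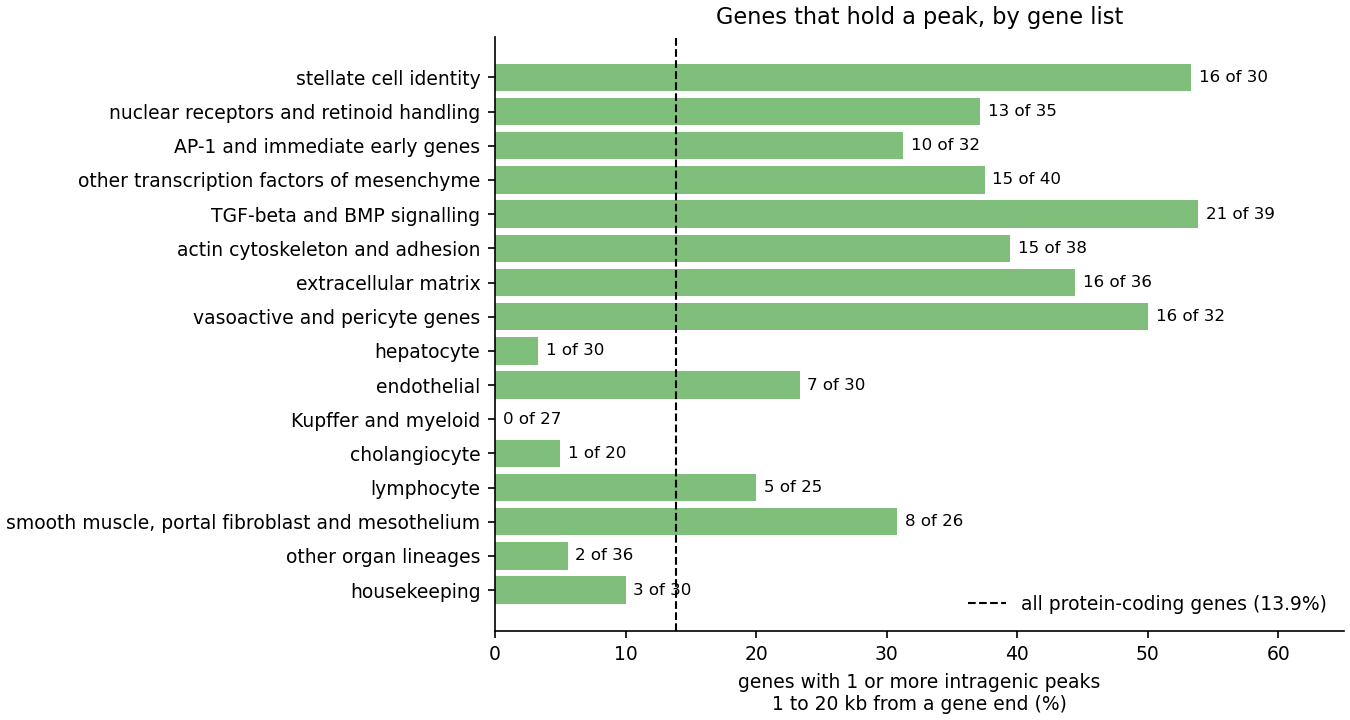
Share of genes with 1 or more intragenic peaks near a gene end (x axis, percent) in each of 16 gene lists (y axis), with the number of genes beside each bar; the dashed line is the share of all protein-coding genes (13.9%). The 8 lists of stellate, signalling, matrix, contractile and regulator genes run from 31.3 to 53.8%, and Kupffer and myeloid genes, hepatocyte, cholangiocyte, other-organ and housekeeping genes lie at 10.0% or below.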

How the data were processed

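ATAC-seq libraries of sorted mouse stellate cell nuclei gave 1 peak list per replicate, called per sample. The submitters' processing notes name the build mm10 and, without saying what each was used for, MACS2, HOMER, STAR 2.7.0, bedtools, SAMtools and Picard. Any shift of reads for Tn5 insertion was not stated there. The deposited lists hold a fold enrichment (a linear ratio to local background), −log10 p and −log10 q and a score, all the authors' values. Entries of A overlapping an entry of B by at least 1 bp were placed by their centre on 21887 protein-coding genes of a RefSeq table (GRCm38.p6, coordinates 1-based). Strand and starts came from RefSeq windows of 300 bp.

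Shares have 95% Wilson intervals, densities Poisson and differences Newcombe intervals, and probabilities of exceeding (Mann-Whitney U over pairs) DeLong intervals. The peaks and the 16 lists (487 of 488 symbols matched) were chosen with earlier results of these data known. Genes named were the 10 strongest peaks by mean rank, the 3 widest, the 3 nearest each distance limit, the 10 genes with the most peaks, and for each list up to 4 genes with the most and 2 without; others were chosen after their values were seen, and a few genes under the rule are left unreported. The planned motif search of whole peaks needed a genome and was replaced by a search of start windows. Computations used scipy 1.17.1, pandas 2.3.3, matplotlib 3.10.9, numpy 2.4.6 and statsmodels 0.14.6 in Python 3.11.15, with functions tested on simulated data.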

Additional observations from a re-analysis of the deposited data

How the results depend on the processing

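Results were recomputed under 11 alternatives. Intragenic peaks near gene ends stayed weaker than gene-end peaks in every alternative that could be set (probability of exceeding 0.308 to 0.390 in A, 0.294 to 0.359 in B), the density near 5′ boundaries stayed above that near 3′ boundaries (ratio 1.40 to 1.95), and the share at an annotated start stayed above that of deep intragenic peaks by 9.38 to 26.4 points. Counts followed the strength demanded. With entries at or above the median −log10 q, 1812 peaks were left in 1624 genes at 4.47 per Mb, 15.3% of replicated peaks, with a median width of 301 bp, fold enrichments of 13.9 in A and 12.4 in B, and 89 genes over the 16 lists against 149. With the 10000 strongest entries of each list there were 879 in 847 genes at 2.17 per Mb, 12.5% of replicated peaks, 317 bp wide, with 16.9 in A and 14.9 in B, and 23 list genes. There the stellate (0 of 30), TGF-beta (1 of 39), vasoactive (1 of 32), lymphocyte (0 of 25) and smooth muscle (0 of 26) lists, above all genes in the main count, fell below the 3.87% of all genes, as the endothelial list did at the median −log10 q (6.67% against 7.42%) and the lymphocyte list without replicate B (20% against 20.7%). A reciprocal overlap of 50% gave 9.42 per Mb, an inner limit of 2.5 kb 13.6% and 9.11 per Mb, an outer limit of 10 kb 11.6% and 10.8 per Mb, and the ends of all genes 20.9% and 9.46 per Mb. Placing by the entries of B gave a median width of 233 bp. Taking 1 replicate without the other gave 5147 to 6955 peaks, 17.9 to 19.01% of entries, 12.7 to 17.2 per Mb and median widths of 218 to 222 bp, and without replicate B a median fold enrichment of 9.34 in A. The motif alternatives (200 bp around the summit, and entries above the median −log10 q) were not run, since they need genome sequence not used here. No paired analysis was possible because both samples belong to 1 group. The lists give no reads, so how depth limits the weaker peaks is unknown.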
